A study of Homo sapiens with 4 samples.

Results

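The collagen gene family was followed in HCE cells, in which the transcription factor KLF7 had been knocked down with siRNA. Members were the genes whose only symbol in the platform annotation had the form COL, a number, A and a number, which gave 43 of the 18417 genes measured. They fell into 11 fibrillar, 6 basement membrane, 10 FACIT and 3 transmembrane collagen genes and 13 of other kinds. FACITs are collagens with interrupted helices that attach to fibrils. For each gene with several features on the array the brightest was used, which concerned COL11A2 alone among the members. A feature that carried the symbols of both a collagen gene and an unrelated gene was not used. COL17A1, the transmembrane collagen of epithelial hemidesmosomes, was not analysed here.

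The samples were 2 siKLF7 arrays, from cells given an siRNA pool against KLF7, and 2 scramble control arrays, from cells given a control siRNA pool. All cells were of the HCE line, described in the labels as undifferentiated, in a series about the corneal epithelium, and none carried another named treatment. The siRNA was used at 20 nM on 100000 plated cells per well, and total RNA was taken 48 hours after transfection. Whether replicates were separate cultures is not stated, so the spread behind each p-value may be technical.

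Collagens are secreted or membrane-anchored proteins whose chains wind around each other into a helix made of repeats that start with glycine. In the cornea, fibrils built mainly of type I and type V collagen fill the stroma, type IV collagen forms the network of the epithelial basement membrane, and type VII collagen makes the anchoring fibrils that tie that membrane to the stroma. Epithelial cells lay down their own basement membrane, whereas stromal keratocytes and fibroblasts make most of the fibrillar collagen. KLF7 belongs to the Kruppel-like factors, zinc finger proteins known to bind CACCC and GC-rich boxes in promoters.

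Type IV genes lie in head-to-head pairs that share a promoter region, so the region of each pair is shown here beside the values that follow. The RefSeq promoter windows of GRCh38.p14 reach from 250 bases before to 50 bases after a start site, and 31 of the 43 members had at least 1 window. COL5A2, COL3A1, COL20A1, COL1A1 and COL1A2 were among the members without one. The windows of COL4A2 and COL4A1 shared 226 bases and their start sites lay 127 bases apart. For COL4A3 and COL4A4 the windows shared 82 bases with start sites 419 bases apart, and for COL4A5 and COL4A6 they shared 121 bases with start sites 380 bases apart. Each sequence is the plus strand, 5′ to 3′, and capitals mark CACCC and GGGCGG on either strand. The COL4A2 window lies at chr13:110307034-110307333, the COL4A3 window at chr2:227164374-227164673 and the COL4A5 window at chrX:108439588-108439887.
COL4A2: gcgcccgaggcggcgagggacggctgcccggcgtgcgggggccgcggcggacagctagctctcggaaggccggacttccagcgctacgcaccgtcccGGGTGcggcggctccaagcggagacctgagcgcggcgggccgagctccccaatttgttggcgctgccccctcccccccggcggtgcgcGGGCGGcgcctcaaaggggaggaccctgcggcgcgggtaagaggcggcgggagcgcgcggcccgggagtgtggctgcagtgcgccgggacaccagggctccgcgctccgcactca
COL4A3: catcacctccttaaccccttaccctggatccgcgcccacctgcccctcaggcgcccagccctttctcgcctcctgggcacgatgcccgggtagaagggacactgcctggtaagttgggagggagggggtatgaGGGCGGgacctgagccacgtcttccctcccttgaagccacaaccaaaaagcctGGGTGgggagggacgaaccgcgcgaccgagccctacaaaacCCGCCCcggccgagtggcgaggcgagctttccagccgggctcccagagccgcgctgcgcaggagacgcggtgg
COL4A5: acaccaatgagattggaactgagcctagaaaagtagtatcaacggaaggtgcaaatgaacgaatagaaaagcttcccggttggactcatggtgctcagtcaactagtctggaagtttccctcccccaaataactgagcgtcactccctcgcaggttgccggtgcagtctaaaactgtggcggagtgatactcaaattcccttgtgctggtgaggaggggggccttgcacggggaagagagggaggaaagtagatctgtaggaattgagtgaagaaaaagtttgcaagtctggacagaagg
The COL4A2 window held 1 CACCC and 1 GGGCGG match, the COL4A3 window 1 and 2, and the COL4A5 window 0 of either. CACCC stood in a window of 26 of the 31 members, or 83.9%, against 63.1% of all 27305 genes with a window. GGGCGG stood in a window of 21 of the 31, or 67.7%, against 48.3% of all genes. A gene counted if any of its windows matched. Per window, the shares were 76.7% of 43 against 59.9% of 35116 for CACCC, and 55.8% against 45.0% for GGGCGG. Those all-gene shares include genes not measured on these arrays, and no chromosome was left out of them. Such matches describe the letters of these windows and show no binding.

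Levels below are log2(signal + 16), and differences are of such levels, siKLF7 minus scramble control. The targeted gene was measured first. KLF7 had signals of 1492 and 1122 in the siKLF7 arrays, against 4649 and 2911 in scramble control replicates 1 and 2. Both siKLF7 values lay below both controls. Its difference was -1.50 (SE 0.28) with 4 arrays, and limma's adjusted p of 0.639 did not pass the threshold of 0.05. Against scramble control replicate 2 alone KLF7 fell by 1.16 (SE 0.13, limma adjusted p = 2.0e-09), to 44.8% of that control, and against replicate 1 alone it fell by 1.83 (limma adjusted p = 2.7e-22). An exact permutation test of 2 arrays against 2 cannot go below p = 0.333.

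The 2 control arrays were unlike each other. Across all genes the siKLF7 arrays correlated with scramble control replicate 2 at r = 0.990 and 0.992, and with scramble control replicate 1 at 0.934 and 0.937. Epithelial and stromal markers differed between the controls, and some also between the siKLF7 arrays and each control. Summed signals of 9 corneal epithelial markers were 38337 and 40962 in the siKLF7 arrays, 25712 in scramble control replicate 1 and 34974 in scramble control replicate 2, and 5 of the 9 were at least 2-fold lower in replicate 1 than in the mean of the other 3 arrays, against 3% of all genes. For 7 of the 9 both siKLF7 arrays lay above both controls, as did 16.3% of all genes. Against scramble control replicate 2, 4 of the 9 rose (KRT12 by 0.81, ALDH3A1 by 0.65, KRT3 by 0.57 and CLU by 0.53, with limma adjusted p between 4.0e-06 for KRT12 and 0.031 for CLU), whereas 0.89% of all genes were called higher. That is the same comparison in which COL5A2 passed. KRT5 and PAX6, an epithelial keratin and an eye-field factor, were bright on all arrays, at levels of at least 13.53 and 10.37. KRT12, the cornea-type keratin, stood at 6.39 in scramble control replicate 1 and at 11.26, 11.62 and 10.63 in the other arrays. Summed signals of 14 fibroblast and keratocyte markers were 3529 and 3438 in the siKLF7 arrays, 4874 in scramble control replicate 1 and 2994 in scramble control replicate 2. VIM alone gave 2005 and 1843 of these sums in the siKLF7 arrays, 1992 in replicate 1 and 1466 in replicate 2. Both siKLF7 arrays lay below both controls for 6 of the 14, against 28.9% of all genes, and above both for 3, against 16.3%. Of the 14, THY1 and POSTN were at least 2-fold higher in replicate 1, as were 2.12% of all genes. Among the small proteoglycans of the stroma, DCN and KERA were dim on all arrays, at 5.22 to 5.73 and 5.67 to 6.01, and lower in siKLF7 arrays than in both controls without passing. LUM, another of them, was also dim, with signals of 63.5 and 62.4 in the siKLF7 arrays against 25.1 and 34.6 in the control arrays. LUM rose by 0.64 against replicate 2 and by 0.94 against replicate 1. POSTN rose by 0.86 against replicate 2 and fell by 3.21 against replicate 1. Its signals were 77.4 and 44.1 in the siKLF7 arrays, against 678 and 25.4 in scramble control replicates 1 and 2. The control signals of LUM and the lowest of POSTN were close to the 16 added before taking logarithms. FBN1 differed by 0.44 against replicate 2 without passing and rose by 0.89 against replicate 1, and VIM was bright on all arrays, at levels of at least 10.53. Measured markers of corneal endothelium, vascular endothelium, pericytes and smooth muscle, melanocytes and leukocytes were within 2-fold in replicate 1 for 4 of 4, 5 of 5, 5 of 5, 3 of 3 and 5 of 5 genes. The widest gaps among them were -0.96 for ACTA2, close to that limit, and 0.73 for SLC4A4, in replicate 1 minus the mean of the other 3 arrays. The part of these differences in the collagen results was not tested. Counts of collagen genes that passed are therefore given against both controls and against each one, and so are the values of each collagen gene that passed in any of these fits.

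The number of collagen genes that passed depended on the control array. With 4 arrays 0 of the 43 collagen genes passed limma's adjusted threshold, as did 0% of all genes, and 2 had an unadjusted p under 0.05 (COL3A1 and COL20A1), against 5.81% of all genes. Since KLF7 itself did not pass in that fit, a count of 0 there does not show that collagen expression was unchanged. In the fit against scramble control replicate 2 alone, 1 collagen gene passed, against 1.57% of all genes. This was COL5A2, which was higher in siKLF7 arrays, as were 0.89% of all genes. No member was called lower in that fit, against 0.679% of all genes. In the fit against scramble control replicate 1 alone, 4 collagen genes passed, against 26.8% of all genes. All 4 were lower in siKLF7 arrays (COL5A2, COL4A1, COL4A2 and COL3A1), as were 13.4% of all genes. COL5A2 thus passed in opposite directions against each control.

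**Figure D1:**
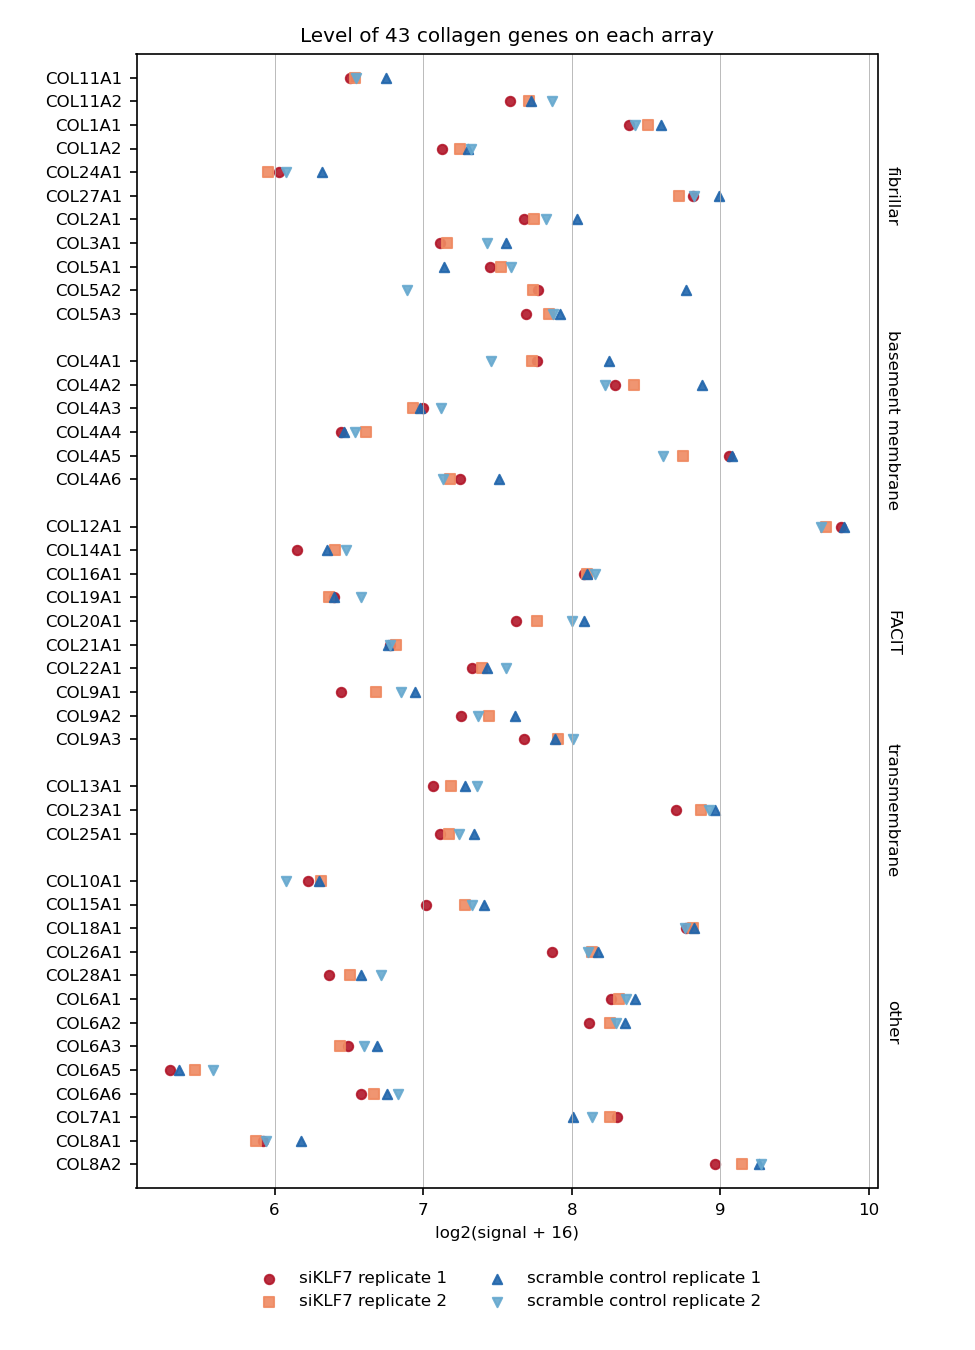
Level of each of the 43 collagen genes on the 4 arrays, as log2(signal + 16), grouped by class; each symbol is 1 array. For most genes the 4 arrays lie close together, and COL5A2 spreads from 6.89 in scramble control replicate 2 to 8.77 in scramble control replicate 1.

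Most differences of single members were well under 2-fold. Leaving out COL5A2, the differences against scramble control replicate 2 ran from -0.31 to 0.29, and their 95% limma intervals stayed within -0.63 and 0.62. Those intervals rest almost wholly on the spread that limma pooled over all genes, since the prior had 69.9 degrees of freedom and the siKLF7 pair gave 1. The single control array enters with no spread of its own. The same 42 genes ran from -0.52 to 0.35 against scramble control replicate 1, with intervals within -0.84 and 0.67. With 4 arrays the same 42 genes ran from -0.36 to 0.21, with intervals within -0.85 and 0.64, while the interval of COL5A2 reached from -1.73 to 1.58. The siKLF7 arrays differed from each other by a median of 0.097 over the 43 genes and by at most 0.31, for COL4A5. Between the controls the median gap was 0.13 and the widest was 1.88, for COL5A2.

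Most members lay slightly below the controls. The median collagen difference was -0.14 with 4 arrays, -0.16 against scramble control replicate 1 and -0.11 against scramble control replicate 2, against -0.048, -0.055 and -0.040 over all genes. The last collagen median moved to -0.055 with quantile normalization, and to 0.023 over the 9 members left without the dimmest 50% of genes. Of the 43 genes, 36 lay below 0 with 4 arrays, against 58.2% of all genes, 38 against scramble control replicate 1, against 57%, and 32 against scramble control replicate 2, against 57.8%. Both siKLF7 arrays lay below both controls for 23 members, or 53.5%, against 28.9% of all genes, and above both controls for 1 member, against 16.3%. Signal level moved with this shift. All 4 arrays were below their own array's median signal for 30 of the 43 members, and over the 5084 genes with mean levels of 6.72 to 8.14, the middle range of the members, the median difference was -0.10 and -0.095, with 38.0% below both controls. The part of signal level in the collagen shift was not tested.

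**Figure D2:**
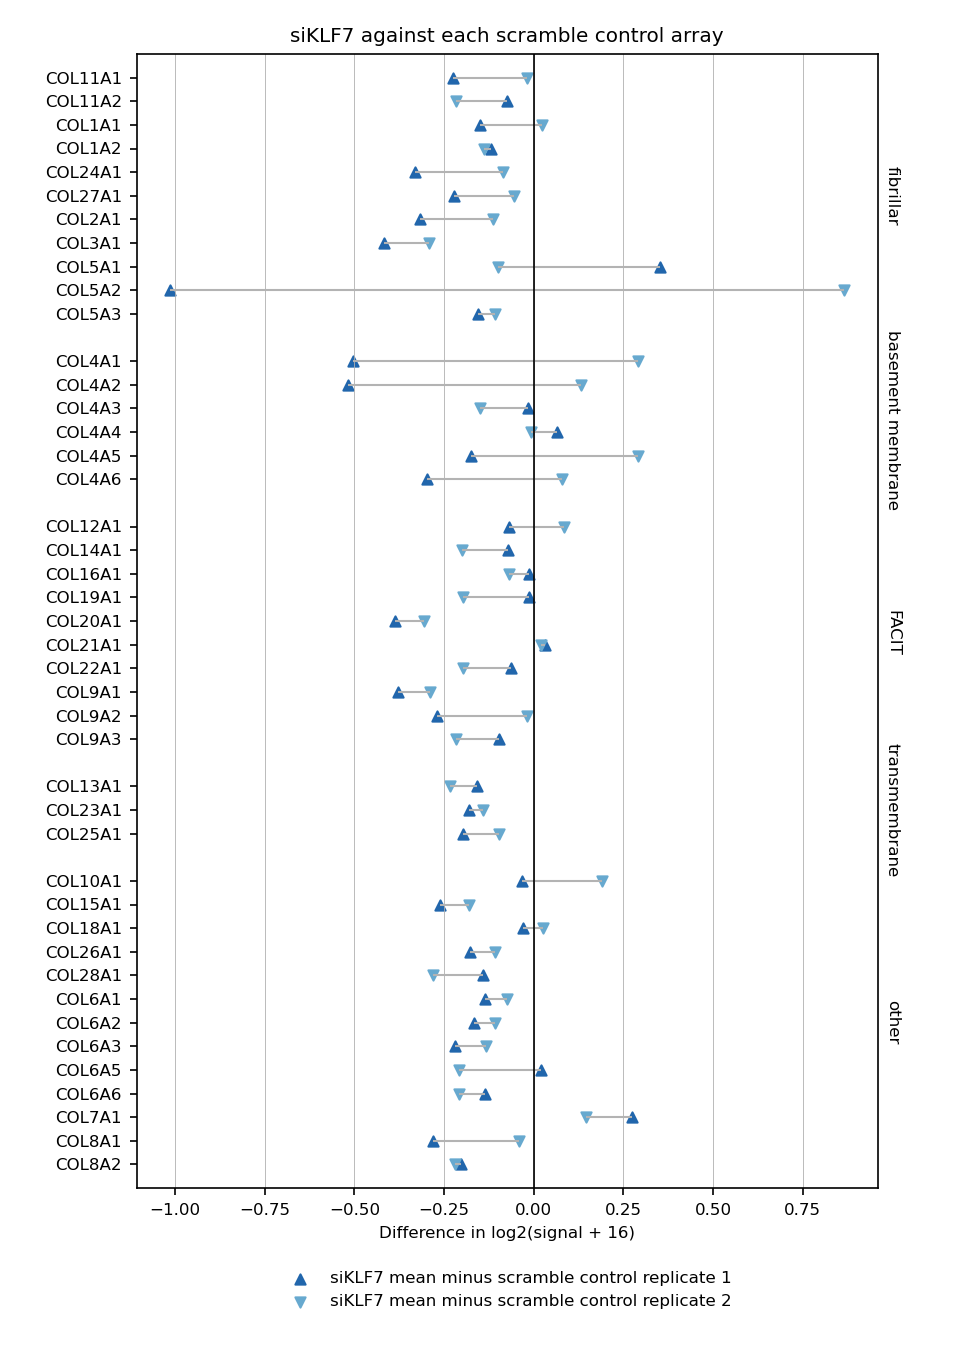
Mean level of the siKLF7 arrays minus that of each scramble control array for the 43 collagen genes, in log2 units; up-pointing triangles are against replicate 1, down-pointing triangles against replicate 2. Most pairs lie left of 0 and within 0.5 of it, and COL5A2 lies at -1.01 and 0.86.

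COL5A2 encodes a chain of type V collagen, which starts and limits the width of fibrils. It had signals of 203 and 197 in the siKLF7 arrays, against 421 and 103 in scramble control replicates 1 and 2. The siKLF7 values lay between the controls, below the first and above the second. COL5A2 was 1.82-fold higher in siKLF7 arrays than in scramble control replicate 2 (log2 0.86, SE 0.16, interval 0.55 to 1.18, limma adjusted p = 0.00021). It was 2.02-fold lower than in scramble control replicate 1 (log2 -1.01, SE 0.16, limma adjusted p = 2.9e-07). With 4 arrays the difference was -0.075 (SE 0.63, limma adjusted p = 0.96), with an SD of 1.33 between the controls and 0.028 between the siKLF7 arrays (log2, n = 2 each). COL5A2 was the only member at least 2-fold above the mean of the other arrays in scramble control replicate 1, against 2.12% of all genes.

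Its partner chains behaved otherwise. COL5A1, the other main chain of type V collagen, had signals of 159 and 168 in the siKLF7 arrays and 125 and 177 in the control arrays. The groups overlapped, and scramble control replicate 1 was the lowest of the 4, where it was the highest for COL5A2. COL5A3, a further type V chain, had signals of 191 and 214 in the siKLF7 arrays and 227 and 219 in the control arrays, a difference of -0.13 (SE 0.12). Neither COL5A1 nor COL5A3 passed against both controls or against either control alone.

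COL3A1, the chain of type III collagen and the protein-coding neighbour of COL5A2 on chromosome 2, was lower against each control. Its signals were 123 and 127 in the siKLF7 arrays, against 172 and 157 in the scramble control arrays. The groups did not overlap, and the difference was -0.36 (SE 0.11, limma unadjusted p = 0.029, adjusted p = 0.64). It fell by 0.42 against scramble control replicate 1 alone (limma adjusted p = 0.042), and against replicate 2 alone the difference was -0.29 (SE 0.16, limma adjusted p = 0.50).

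Type I collagen, the main fibrillar collagen of the stroma, is made of COL1A1 and COL1A2 chains. COL1A1 had signals of 319 and 350 in the siKLF7 arrays and 372 and 328 in the control arrays, and the groups overlapped. COL1A2 had 124 and 136 in the siKLF7 arrays and 142 and 144 in the control arrays. The differences were -0.063 (SE 0.14) for COL1A1 and -0.13 (SE 0.11) for COL1A2. COL2A1, the fibrillar collagen of cartilage, was highest in scramble control replicate 1, with 189 and 199 in the siKLF7 arrays against 246 and 211 in the control arrays. COL27A1, a cartilage fibrillar collagen, had 435 and 406 in the siKLF7 arrays against 493 and 437 in the control arrays. COL24A1 was dim, at 49.2 and 46.0 in the siKLF7 arrays against 64.0 and 51.4 in the control arrays. COL11A1 and COL11A2, chains of type XI collagen, differed by -0.12 and -0.15. Over the 11 fibrillar genes the median difference was -0.13 with 4 arrays. Both siKLF7 arrays were below both controls for 8 of the 11, against 28.9% of all genes and 38.0% of genes of like level. COL11A2 was among the 8 by its brightest feature only. Its other features had signals of 150 and 162 in the siKLF7 arrays against 134 and 169 in the control arrays, and overlapped.

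The groups overlapped for 6 of 6 basement membrane genes, and for 10098 of the 18417 genes measured. COL4A1 and COL4A2 encode the chains of the ubiquitous type IV network and share the first promoter region shown above. COL4A1 had signals of 201 and 197 in the siKLF7 arrays, against 289 and 160 in scramble control replicates 1 and 2. COL4A2 had 298 and 326 in the siKLF7 arrays, against 453 and 283 in the control arrays. Both genes were highest in scramble control replicate 1 and lowest in replicate 2. COL4A1 fell by 0.50 against scramble control replicate 1 alone (limma adjusted p = 0.013), and COL4A2 fell by 0.52 (limma adjusted p = 0.011). Set against scramble control replicate 2 they differed by 0.29 and 0.13 and did not pass (limma adjusted p = 0.50 and 0.79). With 4 arrays the differences were -0.11 and -0.19 and did not pass.

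COL4A5 and COL4A6, the chains of a type IV network found beneath many epithelia, showed the same order of the controls. COL4A5 had signals of 517 and 414 in the siKLF7 arrays, against 525 and 375 in the control arrays. COL4A6 had 136 and 129 in the siKLF7 arrays, against 167 and 125 in the control arrays. Neither passed in any of these fits. COL4A3 and COL4A4, known as chains of the kidney glomerular basement membrane, spread less. COL4A3 had 112 and 106 in the siKLF7 arrays against 110 and 123 in the control arrays, and COL4A4 had 71.3 and 81.9 in the siKLF7 arrays against 72.4 and 76.9 in the control arrays. The median type IV difference was -0.095 with 4 arrays, -0.24 against scramble control replicate 1 and 0.11 against scramble control replicate 2.

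**Figure D3:**
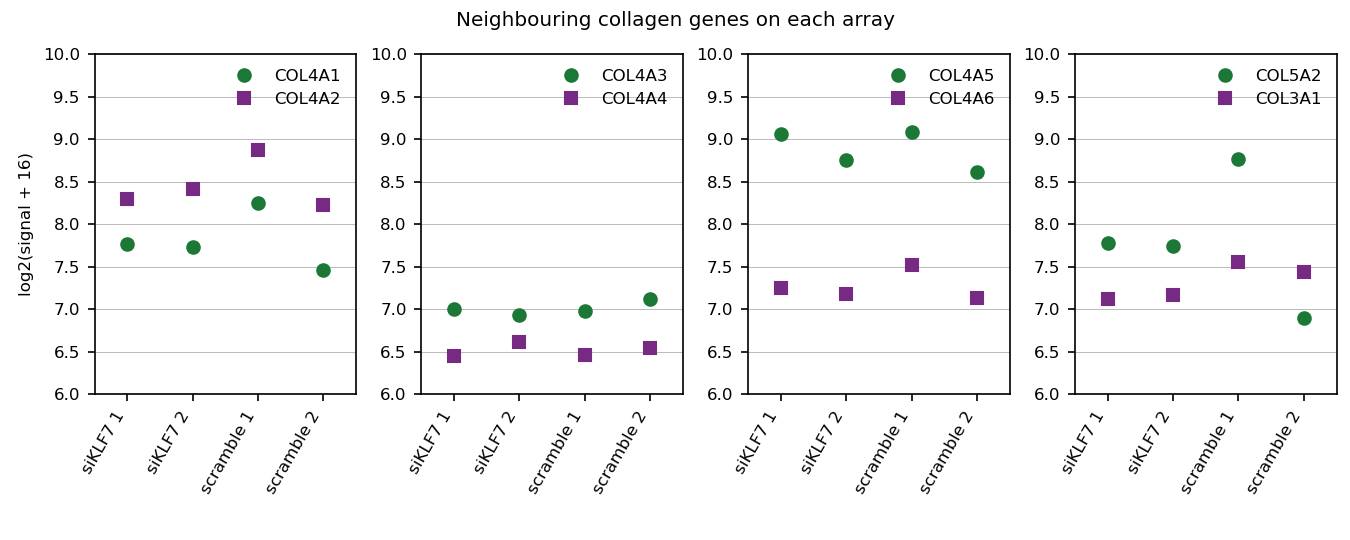
Level of the 3 type IV pairs and of the neighbours COL5A2 and COL3A1 on each array, as log2(signal + 16); each symbol is 1 gene on 1 array. COL4A1 and COL4A2 are both highest in scramble control replicate 1, at 8.25 and 8.87, and COL5A2 has the widest spread.

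COL7A1, which encodes the anchoring fibril collagen, was the 1 member with both siKLF7 arrays above both controls. Its signals were 301 and 291 in the siKLF7 arrays, against 242 and 266 in the scramble control arrays. The difference was 0.21 (SE 0.12, limma adjusted p = 0.64) with 4 arrays, 0.15 (SE 0.16, limma adjusted p = 0.76) against scramble control replicate 2, and 0.28 (limma adjusted p = 0.22) against replicate 1, so it passed in none of the fits.

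Among the FACIT genes COL20A1 and COL9A1 stood lowest in the siKLF7 arrays relative to the controls. COL20A1 had signals of 181 and 201 in the siKLF7 arrays, against 255 and 240 in the control arrays, with no overlap. The difference was -0.35 (SE 0.12, limma unadjusted p = 0.041, adjusted p = 0.64). COL9A1, a chain of cartilage type IX collagen, had 71.1 and 86.7 in the siKLF7 arrays against 107 and 99.7 in the control arrays, a difference of -0.33 (SE 0.13). COL12A1, a FACIT that coats fibrils in dense connective tissue and in the cornea, had 883 and 822 in the siKLF7 arrays against 895 and 803 in the control arrays, and the groups overlapped. Its difference was 0.0070 (SE 0.14). COL16A1 had 255 and 258 in the siKLF7 arrays against 259 and 270 in the control arrays. The median of the 10 FACIT genes was -0.13 with 4 arrays. Both siKLF7 arrays lay below both controls for 4, or 40%, against 28.9% of all genes and 38.0% of genes of like level.

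The transmembrane collagens COL13A1, COL23A1 and COL25A1 differed by -0.20, -0.16 and -0.15. Both siKLF7 arrays lay below both controls for 3 of the 3 measured, against 28.9% of all genes and 38.0% of genes of like level. COL23A1 had signals of 401 and 452 in the siKLF7 arrays, against 484 and 471 in the control arrays. The spread between the siKLF7 arrays was close to the gap between the groups, and none of the 3 passed.

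Of the other members, the short-chain collagens COL8A2 and COL8A1 are components of Descemet's membrane, which lies beneath the corneal endothelium. COL8A2 had signals of 484 and 550 in the siKLF7 arrays against 597 and 604 in the control arrays, a difference of -0.21 (SE 0.14). COL8A1 was dim, at 44.7 and 42.6 in the siKLF7 arrays against 56.5 and 45.4 in the control arrays. Groups did not overlap for either gene. COL6A1 and COL6A2, chains of the beaded filament collagen, had 291 and 304 and 262 and 290 in the siKLF7 arrays, against 329 and 314 and 312 and 299 in the control arrays, with differences of -0.11 and -0.14. COL18A1, a basement membrane zone collagen whose end fragment is endostatin, differed by -0.0020, with 420 and 434 in the siKLF7 arrays against 436 and 419 in the control arrays. COL6A5 was dim, with signals between 23.3 in siKLF7 replicate 1 and 32.1 in scramble control replicate 2, close to the 16 added before taking logarithms. The 13 other genes ran from -0.22 for COL15A1 to 0.21 for COL7A1. Of the 13, 8 had both siKLF7 arrays below both controls, against 28.9% of all genes and 38.0% of genes of like level.

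Genes that fold and modify collagen chains did not pass with 4 arrays or against scramble control replicate 2, with 0 of 21 measured members in each limma fit and 1 and 3 at an unadjusted p under 0.05, against 5.81% and 11.3% of all genes. When set against scramble control replicate 1 alone, 8 fell and 1 rose, and 13.4% of all genes were called lower and 13.4% higher. FKBP10, a chaperone of procollagen, had signals of 432 and 395 in the siKLF7 arrays, against 2021 and 589 in scramble control replicates 1 and 2. Both siKLF7 values lay below both controls, and the difference was -1.37 (SE 0.59) with 4 arrays and -0.50 (SE 0.16, limma adjusted p = 0.12) against replicate 2. P3H2, a prolyl 3-hydroxylase, had 1139 and 1257 in the siKLF7 arrays, against 747 and 891 in the control arrays. It rose by 0.67 against replicate 1 (limma adjusted p = 0.00017) and differed by 0.42 against replicate 2 (limma adjusted p = 0.16). The modifying enzymes COLGALT1, PLOD3 and P3H1 fell by 1.25, 1.19 and 1.08 against replicate 1 and differed by 0.062, -0.057 and 0.077 against replicate 2. SERPINH1, the collagen chaperone HSP47, differed by 0.15 with 4 arrays and 0.26 against replicate 2.

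Of the 14 genes of extracellular processing and cross-linking, 0 passed limma with 4 arrays or against scramble control replicate 2, with 1 and 2 at an unadjusted p under 0.05 (5.81% and 11.3% of all genes). Against replicate 1, 3 fell and 2 rose, so that 5 of 14 passed beside 26.8% of all genes. FN1, the fibronectin on which collagen fibrils assemble, had signals of 596 and 612 in the siKLF7 arrays against 6544 and 543 in the control arrays. LOXL2, a cross-linking oxidase, had 289 and 269 in the siKLF7 arrays against 863 and 258 in the control arrays. Both were high in scramble control replicate 1 only. LOX was lowest in that array, at 48.7, against 124 in scramble control replicate 2 and 93.1 and 96.3 in the siKLF7 arrays. LOX rose by 0.78 against replicate 1 and differed by -0.34 against replicate 2. TLL1, a procollagen-cleaving protease, had 258 and 190 in the siKLF7 arrays against 59.9 and 153 in the control arrays, with no overlap. TLL1 rose by 1.65 against replicate 1 and differed by 0.49 against replicate 2 without passing.

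Of the collagen-cleaving proteases, MMP1 fell furthest against each control. MMP1, the interstitial collagenase, had signals of 144 and 156 in the siKLF7 arrays, against 3436 and 271 in scramble control replicates 1 and 2. Both siKLF7 values lay below both controls. MMP1 fell by 0.79 against replicate 2 (SE 0.16, limma adjusted p = 0.00095) and fell by 4.38 against replicate 1, and with 4 arrays the difference was -2.58 (SE 1.19, limma adjusted p = 0.64). Of the 8 proteases, 1 fell against replicate 2 (0.679% of all genes) and 6 against replicate 1 (13.4% of all genes). MMP2 and MMP14, a gelatinase and its membrane-bound activator, fell by 2.86 and 1.53 against replicate 1 and differed by -0.12 and 0.025 against replicate 2. CTSK, a collagen-degrading cathepsin, fell by 1.82 against replicate 1 and differed by 0.41 against replicate 2.

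Of 9 collagen receptor genes 0 passed limma with 4 arrays or against scramble control replicate 2, with 0 at an unadjusted p under 0.05 in either fit, and 3 fell against replicate 1, where 13.4% of all genes were called lower. ITGA2 and ITGB1, the chains of a collagen-binding integrin, fell by 1.24 and 0.66 there and differed by 0.24 and 0.19 against replicate 2. DDR1, a receptor kinase for collagen, fell by 0.97 against replicate 1 and differed by 0.14 against replicate 2. Of 6 hemidesmosome and anchoring genes 0 passed limma with 4 arrays, as did 0% of all genes, so that count does not show them unchanged. Both siKLF7 arrays lay below both controls for 2 of the 6, against 28.9% of all genes, and above both for 1, against 16.3%. The median difference of the 6 was -0.53 against replicate 1 and 0.079 against replicate 2, against -0.055 and -0.040 over all genes. ITGA6 rose by 0.43 against replicate 2 and fell by 0.56 against replicate 1. Its signals were 4493 and 4379 in the siKLF7 arrays and 6529 and 3290 in the control arrays. As for COL5A2, the siKLF7 values lay between the controls. LAMB3, a chain of the laminin that anchors epithelia, had 2785 and 2807 in the siKLF7 arrays, against 7511 and 3483 in the control arrays. Both siKLF7 values lay below both controls. LAMB3 fell against replicate 1, with a difference of -1.42, and differed by -0.32 against replicate 2. ITGB4 and PLEC also fell against replicate 1, with differences of -0.59 and -0.50, and differed by 0.12 and -0.20 against replicate 2. DST and CD151 differed by 0.13 and -0.0049 against replicate 1, and by 0.17 and 0.037 against replicate 2.

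**Figure D4:**
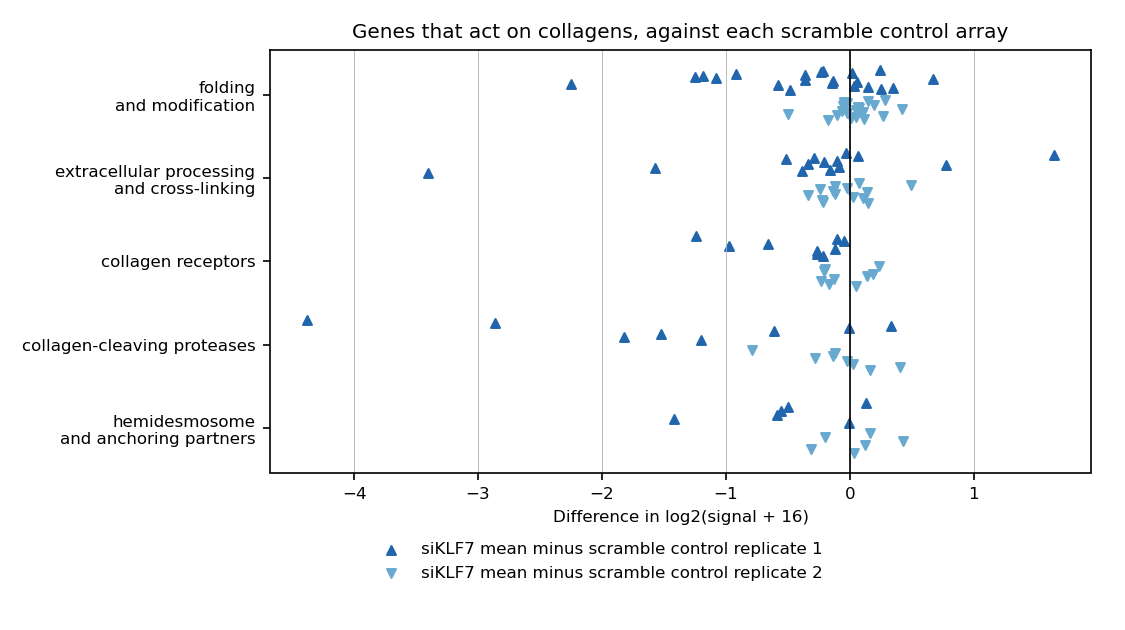
Mean level of the siKLF7 arrays minus that of each scramble control array for genes that fold, process, bind or cleave collagens, in log2 units; each triangle is 1 gene. Differences against replicate 2 lie within 1 of 0, and those against replicate 1 reach -4.38 for MMP1.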

How the data were processed

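Total RNA of 4 HCE samples was measured on whole-transcript arrays, and the authors deposited a table of linear intensity values. The submitters' processing notes name Affymetrix Expression Console 1.1.1 and PLIER 2.0. Normalization between arrays is not stated there. The number of arrays limits the precision. Of 33297 features, 19460 had 1 gene symbol, 1754 several and 12083 none, and the brightest feature per gene left 18417 genes.

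Values were taken as log2(signal + 16). All genes were fitted with limma 3.58.1 in R 4.3.3 (lmFit, eBayes with an intensity trend), and p-values were adjusted by Benjamini and Hochberg's method over all genes, with 0.05 as the threshold. The fit of 4 arrays had 2 residual degrees of freedom. Fits against 1 control used 3 arrays and had 1 residual degree of freedom. The prior pooled over all genes had 2.63 degrees of freedom with 4 arrays, 69.9 against scramble control replicate 2 and 80.4 against replicate 1. The fits were also run on simulated data in which each gene had the same spread on all arrays. That run does not cover a control array that stands apart.

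Collagen genes, classes and supporting lists were chosen with earlier results of these data known. Named were members that passed, those with the largest gap between scramble control replicate 1 and the other arrays, the 12 brightest, and those with a known place in the cornea; other members are named as examples. From each supporting list were named members that passed with 4 arrays or against scramble control replicate 2, up to 6 with the smallest p there, and up to 3 with the largest gap between controls. Alternatives covered normalization, dim genes, the prior, features, pseudocounts of 1 and 32, the threshold, the replicate block and leaving out arrays. Figures were drawn with matplotlib 3.10.9.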

Additional observations from a re-analysis of the deposited data

How the results depend on the processing

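With 2 arrays per group, the choice of control array decided more than any other setting. The number of collagen genes that passed with 4 arrays was 0 under every alternative that kept all 4 arrays, including the replicate block, and ran from 0 to 4 when 1 array was left out (1 without the first scramble control array, and 4 without the second). KLF7 ran from -1.83 to -1.16 in those fits and passed without either control. Against scramble control replicate 2 the count stayed 1 except without the dimmest 50% of genes, where it was 0 because COL5A2 was among those removed. The median collagen difference there moved to -0.055 with quantile normalization and to 0.023 without the dimmest 50%, over the 9 members left. Replicate numbers were not treated as pairs in the main fits. Differences between replicates 1 and 2 of the 2 groups correlated at -0.042 across genes. Because scramble control replicate 1 stood apart from the other arrays, that value cannot show whether the samples were paired.

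Of 586 values of named collagen genes under alternatives, 561 kept their sign and call, 4 newly passed with the same sign, 21 changed sign, of which 1 also newly passed (COL5A2 without the first scramble control array), and 0 lost a call. Leaving out 1 array in turn, COL5A2 ran from -1.01 to 0.86, COL4A1 from -0.50 to 0.29, COL4A2 from -0.52 to 0.13, COL4A5 from -0.18 to 0.29, COL4A6 from -0.30 to 0.079 and COL5A1 from -0.10 to 0.35. Smaller ranges across 0 were -0.054 to 0.11 for COL4A4, -0.070 to 0.084 for COL12A1, -0.15 to 0.023 for COL1A1 and -0.031 to 0.027 for COL18A1. With 4 arrays COL12A1 was -0.011 with quantile normalization and COL18A1 was 0.00096 with median centring. Against scramble control replicate 2 with quantile normalization, COL24A1 was 0.0057, COL4A4 0.086 and COL8A1 0.044, and COL4A4 was 0.026 with median centring. The cause of these changes of sign was not tested.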
